A study of Mus musculus with 12 samples.

Results

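The Hox genes of mouse embryonic fibroblasts were examined on 12 microarrays. Members were all probe sets whose platform annotation names a single gene called Hoxa, Hoxb, Hoxc or Hoxd with a paralog number from 1 to 13. This gave 37 genes, with 1 probe set each, among the 19938 genes measured. They comprised 10 Hoxa, 9 Hoxb, 9 Hoxc and 9 Hoxd genes. Hoxb8 was read only by a probe set that it shares with Hoxb7. No filter on low values was applied, so all 37 members were tested.

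Hox genes encode homeodomain transcription factors that give cells along the body axis and the limbs their positional identity. Within each cluster the genes stand in the order of their paralog numbers, and low numbers are used towards the head while high numbers are used towards the tail and the limb tips. Cultured fibroblasts keep much of the Hox pattern of the site they came from. In pluripotent cells most Hox genes are held silent by Polycomb complexes, which is why they are of interest in cells undergoing reprogramming.

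The fibroblasts came from a cross of OG2 mice, which carry a GFP reporter driven by the Oct4 promoter, with 129/sv mice. Some cultures were infected with SKO, a name the labels tie to the iPS process without spelling out the letters, together with a retrovirus carrying microRNA cluster C or B, or with a blank control virus. The other cultures received cluster C, cluster B or blank virus without SKO. RNA was taken at day 8 or day 4 after the first infection, in medium for mouse embryonic stem cells. Groups and days are those of the titles and time labels, while the description field has the same text on all 12 samples and names a different cell state and day. For each of the 12 combinations there was 1 array. SKO was compared with no SKO over 3 arrays against 3 of the same day, matched by virus. All arrays without SKO carry the label Group2, so the effect of SKO and a difference between the 2 label groups cannot be told apart. Feeder cells were removed before extraction, per the labels' protocols, and no sample of uninfected cells was used here.

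The log2 values had array medians between 4.98 and 5.07 and lower quartiles between 3.48 and 3.68. Pou5f1, which encodes Oct4, lay at 11.60 to 12 on the 6 arrays with SKO and at 3.35 to 4.56 on the 6 without, and Klf4 lay at 8.63 to 8.91 with SKO, against 6.92 to 7.16 without. Tests were made with limma over all 12 arrays and adjusted over all 19938 genes, and a gene passed at an adjusted p under 0.05. The SE of a difference comes from how far day effects differed between viruses, and no combination had a replicate of its own. Precision is limited by how few arrays there are.

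Of the 37 Hox genes, 20 lay above the array median on all 12 arrays, 10 on some arrays and 7 on none. Values below the lower quartile occurred in 3 members, Hoxc12 on 11 arrays, Hoxc11 on 6 and Hoxd1 on 4, and differences of these are best read as bounds. The range over the 12 arrays had a median of 0.77 log2 units for the Hox genes and 0.74 for all genes, from 0.34 for Hoxb5 to 1.54 for Hoxc6. A heat map of all members shows each gene relative to its own mean, since levels of different probe sets cannot be compared.

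**Figure D1:**
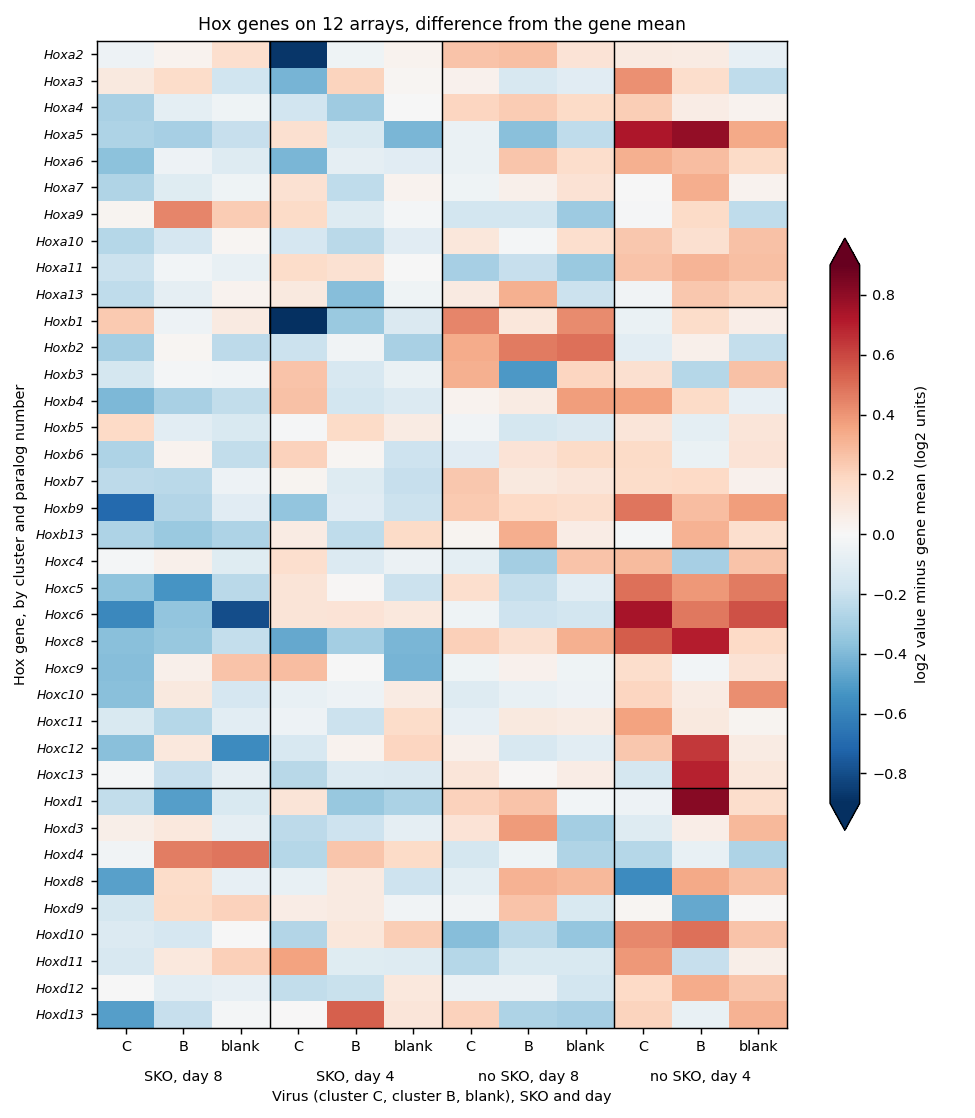
Each row is 1 of the 37 Hox genes, ordered by cluster and paralog number, and each column 1 of the 12 arrays. Colour gives the log2 value minus the mean of that gene over the 12 arrays. Arrays without SKO at day 4 all lie above the other arrays for Hoxa5, Hoxa11, Hoxb9, Hoxc5, Hoxc6, Hoxd10 and Hoxd12. This pattern was not counted over all genes. The arrays with SKO hold the lowest values of Hoxb9 and Hoxc8.

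Several microRNA genes lie inside the Hox clusters, and some of their mature products are known to target Hox transcripts. The mature sequences are shown because these genes were measured beside the Hox genes, and because the members of a family share a seed. They were taken from RefSeq (GRCm38.p6), run from 5′ to 3′, and have the seed, bases 2 to 8, in capitals.
miR-10a-5p (Hoxb cluster, chr11:96317186-96317208, plus strand): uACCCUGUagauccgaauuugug
miR-10b-5p (Hoxd cluster, chr2:74726074-74726096, plus strand): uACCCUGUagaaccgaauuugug
miR-196a-5p (encoded in the Hoxb and Hoxc clusters, here chr11:96265187-96265208, plus strand): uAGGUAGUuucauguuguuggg
miR-196b-5p (Hoxa cluster, chr6:52230129-52230150, minus strand): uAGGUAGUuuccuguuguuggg
miR-615-3p (Hoxc cluster, chr15:103014969-103014990, plus strand): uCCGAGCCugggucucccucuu
Both miR-10 sequences carry the seed ACCCUGU and both miR-196 sequences AGGUAGU, while miR-615-3p carries CCGAGCC.

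The first comparison asked how Hox genes stood in cells with SKO at day 8 relative to cells without it. Hoxb2, Hoxb9, Hoxc8, Hoxc6, Hoxb13 and Hoxa4 were lower with SKO, and Hoxd4 and Hoxa9 were higher. Thus 6 of 37 members (16.2%) fell and 2 (5.41%) rose, against 12.7% and 13.4% of all genes. The share that fell was near that of all genes, and the share that rose was below it. Of the members 27 lay below 0 with a median log2 difference of -0.18, and 58.7% of all genes lay below 0 with a median of -0.07. All 3 virus pairs lay below 0 for 18 members and above 0 for 5, and such pairs were not counted over all genes. Changes were small, with SKO at 0.658 to 0.793 times the level without it for the genes that fell and at 1.37 and 1.38 times for those that rose. Quantile normalization or equal array medians gave 9 lower and 1 higher in place of 6 and 2, and the shares of all genes under these settings are not given here.

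Hoxb2, which patterns the hindbrain, was at 5.80, 6.12 and 5.87 with SKO and clusters C, B and blank virus at day 8, against 6.44, 6.57 and 6.60 without SKO. All arrays with SKO lay below all those without, and the log2 difference was -0.60 ± 0.10 (SE, 3 arrays against 3, limma adjusted p = 0.00267). Hoxb9, which acts in the thoracic skeleton, was at 6.35, 6.79 and 6.95 with SKO and at 7.29, 7.23 and 7.21 without. The cluster C array was the lowest of the 3 with SKO, and the difference was -0.55 ± 0.11 (limma adjusted p = 0.00645). Hoxc8, another gene of the thoracic region, was at 6.41, 6.44 and 6.57 with SKO and at 7.0, 6.93 and 7.10 without. The groups did not overlap (-0.54 ± 0.14, limma adjusted p = 0.02). Groups without overlap, here and below, were not counted over all genes.

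Hoxc6, active in the thorax and forelimb region, was at 5.75, 5.97 and 5.53 with SKO at day 8 and at 6.29, 6.14 and 6.16 without (-0.45 ± 0.11, limma adjusted p = 0.0154). Its highest array with SKO, that of cluster B, lay below every array without SKO. Hoxb13, a gene of the tail end of the embryo, was at 3.72, 3.66 and 3.72 with SKO and at 4.02, 4.32 and 4.06 without (-0.44 ± 0.10, limma adjusted p = 0.0145). These values stand near the lower quartile of the arrays, and Hoxb13 was below the array median throughout. Hoxa4 was at 6.31, 6.51 and 6.56 with SKO and at 6.79, 6.83 and 6.77 without (-0.33 ± 0.11, limma adjusted p = 0.0493).

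The 2 members that rose were a central and a posterior gene. Hoxd4, of the hindbrain and neck region, was at 4.99, 5.48 and 5.50 with SKO at day 8 and at 4.86, 4.98 and 4.75 without (0.47 ± 0.09, limma adjusted p = 0.00576). With SKO and cluster C it lay just above the highest array without SKO, while cluster B and blank virus stood clear of it. Hoxa9, known from the posterior skeleton and from blood progenitors, was at 5.81, 6.23 and 6.02 with SKO and at 5.62, 5.62 and 5.46 without (0.45 ± 0.14, limma adjusted p = 0.0415). The annotation of Hoxd4 overlaps that of Hoxd3, and Hoxa4 overlaps Hoxa3, so probes in the shared parts may read either gene.

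By cluster, 8 of 9 Hoxb genes and 8 of 9 Hoxc genes lay below 0 at day 8, with medians of -0.32 and -0.19. Among Hoxd genes 4 of 9 lay below 0, with a median of 0.03, and among Hoxa genes 7 of 10, with a median of -0.17. By paralog number, 6 of 7 anterior genes (1 to 3), 11 of 14 central genes (4 to 8) and 10 of 16 posterior genes (9 to 13) lay below 0.

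At day 4, SKO was compared with no SKO in the same way, and 9 Hox genes were lower and none was higher. The 9 were Hoxc8, Hoxa5, Hoxb9, Hoxc6, Hoxc5, Hoxa6, Hoxd10, Hoxa10 and Hoxd12. They make up 24.3% of the members, against 9.40% of all genes that fell, and 0.0% rose against 9.52%. Of 37 members 32 lay below 0, with a median of -0.22, against 55.8% and -0.04 for all genes. In 18 members all 3 virus pairs lay below 0, and in 0 all lay above, again with no count over all genes. The fall was largest for Hoxc8, at 0.547 times the level without SKO, and smallest for Hoxd12, at 0.775 times.

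Hoxc8 was at 6.32, 6.48 and 6.37 with SKO at day 4 and at 7.33, 7.49 and 6.96 without (-0.87 ± 0.14, limma adjusted p = 0.00227). The blank virus pair differed least. Hoxa5, which takes part in lung and neck skeleton formation, was at 5.93, 5.65 and 5.38 with SKO and at 6.52, 6.58 and 6.13 without (-0.75 ± 0.15, limma adjusted p = 0.00753). Hoxb9 was at 6.70, 6.95 and 6.86 with SKO and at 7.53, 7.33 and 7.43 without (-0.59 ± 0.11, limma adjusted p = 0.00563). Groups were separate for these genes, and for Hoxb9 and Hoxc8 every one of the 6 arrays with SKO lay below all 6 without. How many of all genes were separated in this way was not counted.

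Hoxc6 was at 6.44, 6.45 and 6.42 with SKO at day 4 and at 7.07, 6.80 and 6.90 without (-0.48 ± 0.11, limma adjusted p = 0.0135). Hoxc5, its neighbour, was at 5.79, 5.68 and 5.48 with SKO and at 6.17, 6.06 and 6.14 without (-0.47 ± 0.12, limma adjusted p = 0.0265). Hoxa6, which lies beside Hoxa5, was at 5.88, 6.21 and 6.19 with SKO and at 6.61, 6.57 and 6.46 without (-0.46 ± 0.11, limma adjusted p = 0.0174). These 3 central genes each separated the groups without overlap, which was not counted over all genes. They were named because they passed on these same arrays, so the separation is not a further result.

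The other members that fell at day 4 were posterior genes known from the limb and the lower trunk. Hoxd10 was at 5.50, 5.86 and 5.98 with SKO and at 6.19, 6.26 and 6.02 without (-0.38 ± 0.11, limma adjusted p = 0.0457), and the blank virus pair differed by little. Hoxa10, which is also needed in the uterus, was at 5.85, 5.76 and 5.90 with SKO and at 6.24, 6.14 and 6.26 without (-0.38 ± 0.10, limma adjusted p = 0.0264). Hoxd12 was at 4.61, 4.63 and 4.93 with SKO and at 5.01, 5.17 and 5.08 without (-0.37 ± 0.11, limma adjusted p = 0.0462). Hoxa3 overlaps Hoxa5 and Hoxa6 in the annotation, and Hoxd11 overlaps Hoxd10, so the members are not fully separate measurements.

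Hoxb9, Hoxc6 and Hoxc8 passed on both days. A further 5 members passed at day 8 alone and 6 at day 4 alone, and whether their differences changed between the days was tested with the day changes of both arms. The plot of SKO differences shows every member on both days.

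**Figure D2:**
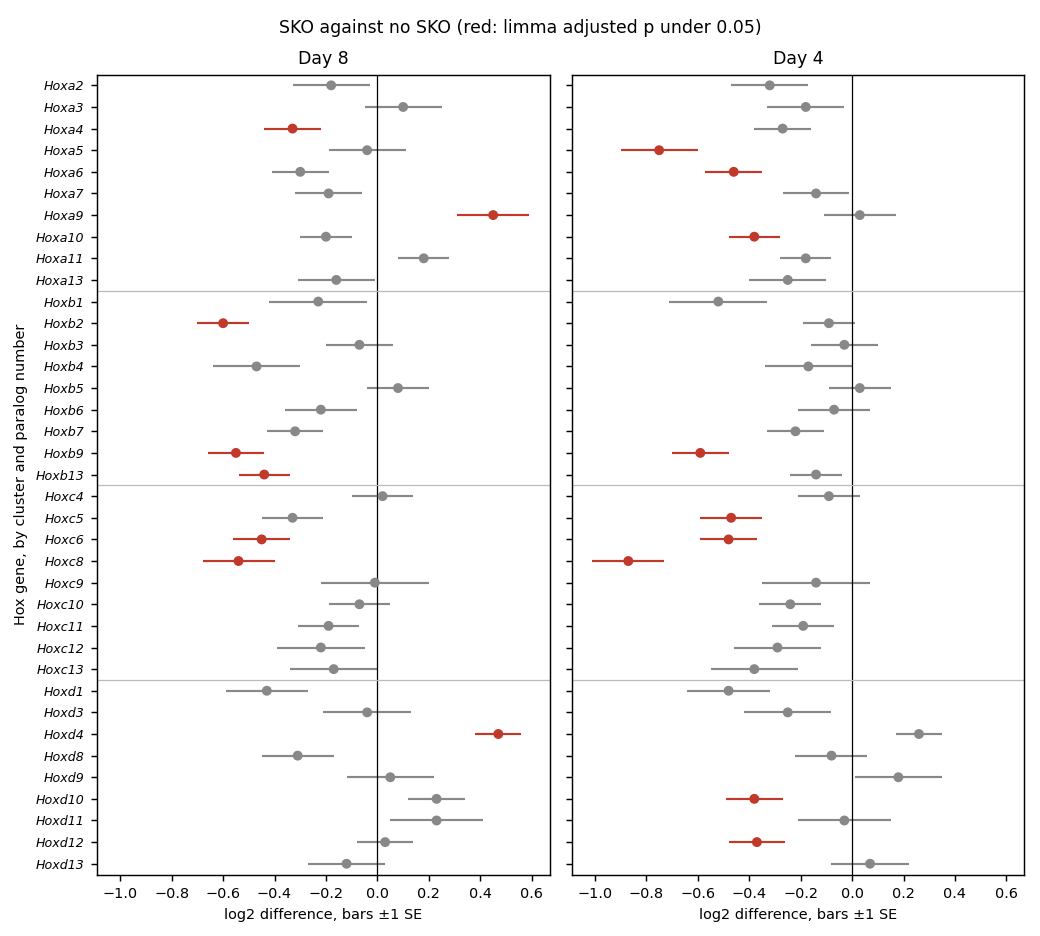
Points give the log2 difference of SKO minus no SKO for each Hox gene and bars ±1 SE from limma, in 1 panel per day. Red points passed an adjusted p of 0.05. Of 37 members 27 lie below 0 at day 8 and 32 at day 4, and Hoxd4 and Hoxa9 are the red points above 0.

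Cell identity markers were read in the same SKO comparisons. Of all genes, 12.7% fell and 13.4% rose at day 8, and 9.40% fell and 9.52% rose at day 4. Of 12 fibroblast markers 9 fell at day 8 and 0 rose, and the mean over the list was 9.59 to 9.76 on the arrays with SKO and 10.71 to 10.88 on those without. At day 4, 8 fell and 1 rose, with means of 9.45 to 9.69 with SKO and 10.30 to 10.43 without. In bulk RNA, fewer fibroblasts and less RNA per fibroblast cannot be told apart. The lowest were the matrix genes Lum (-3.01), Postn (-2.64) and Col3a1 (-1.55), while Thy1 (-0.15), Vim (0.02) and S100a4 (0.31) missed the threshold. No fibroblast marker lay below the lower quartile on all 12 arrays, and 1 endothelial marker did.

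Epithelial markers, 7 of 7, rose at day 8, among them Epcam (3.49), Krt14 (2.42) and Cdh1 (2.24). Their list mean was 6.39 to 7.33 with SKO and 4.71 to 4.94 without. Pluripotent cell markers, 4 of 6, rose at day 8, namely Dppa5a (4.04), Tdgf1 (3.22), Nanog (1.56) and Zfp42 (1.51), with list means of 5.31 to 7.39 with SKO and 4.11 to 4.15 without. At day 4, 4 of 7 epithelial and 0 of 6 pluripotent markers rose. Of 6 endothelial markers Tek rose at day 8 (3.58), a share of 16.7%, near the 13.4% of all genes. The 5 others missed the threshold, Cdh5 lowest (-0.06), with list means of 4.59 to 4.75 with SKO and 3.89 to 4.05 without. Of 7 leukocyte markers Itgam (1.41) and Laptm5 (1.14) rose and 5 fell, Adgre1 (-0.85), Cd68 (-0.72) and Cd52 (-0.71) lowest, with list means of 4.90 to 4.95 with SKO and 4.94 to 5.09 without. Nes (0.36) rose and Sox10 (-0.47) fell among 6 neural markers, 16.7% each way, near the 13.4% and 12.7% of all genes. The neural list means were 4.53 to 4.68 with SKO and 4.70 to 4.75 without. Among 5 muscle markers Tnnt2 (0.48) rose while Acta1 (-1.08) and Des (-0.98) fell, with means of 5.20 to 5.35 with SKO and 5.63 to 5.83 without. The part of such changes in cell make-up in the Hox differences was not tested.

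Time in culture was examined next, first without SKO. Relative to day 4, day 8 was lower in Hoxa5, Hoxc6, Hoxd10, Hoxa11 and Hoxc5 and higher in Hoxb2. These are 13.5% and 2.7% of the members, against 4.63% of all genes that fell and 4.05% that rose. Of 37 members 28 lay below 0, with a median of -0.14, and 48.0% of all genes did, with a median of 0.01. All 9 Hoxc genes and 15 of the 16 posterior genes lay below 0. This comparison uses the same 3 day 4 arrays without SKO as the day 4 comparison of SKO, so a high value on those arrays enters both.

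Hoxa5 was at 5.73, 5.41 and 5.56 at day 8 and at 6.52, 6.58 and 6.13 at day 4, for clusters C, B and blank virus without SKO (-0.85 ± 0.15, SE, 3 arrays against 3, limma adjusted p = 0.0115). Its 3 arrays at day 4 without SKO stood above the other 9 of the series. Hoxd10 was at 5.38, 5.52 and 5.41 at day 8 and at 6.19, 6.26 and 6.02 at day 4 (-0.72 ± 0.11, limma adjusted p = 0.00698). Here too the 3 arrays at day 4 without SKO were the highest of the 12.

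Hoxc6 was at 6.29, 6.14 and 6.16 at day 8 and at 7.07, 6.80 and 6.90 at day 4 (-0.73 ± 0.11, limma adjusted p = 0.00587). Hoxc5 was at 5.82, 5.46 and 5.58 at day 8 and at 6.17, 6.06 and 6.14 at day 4 (-0.50 ± 0.12, limma adjusted p = 0.0389). Hoxa11, a gene of the forearm and the kidney, was at 5.14, 5.23 and 5.10 at day 8 and at 5.69, 5.74 and 5.71 at day 4 (-0.55 ± 0.10, limma adjusted p = 0.0131). Each virus gave nearly the same Hoxa11 value within a day. Hoxb2 went the other way, at 6.44, 6.57 and 6.60 at day 8 and at 6.01, 6.15 and 5.89 at day 4 (0.52 ± 0.10, limma adjusted p = 0.0196), with no overlap.

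With SKO, 1 of 37 Hox genes fell between the days and 0 rose, which is 2.7% and 0.0% of the members, against 3.66% and 5.24% of all genes. The share that fell was near that of all genes. That gene was Hoxc6, at 5.75, 5.97 and 5.53 at day 8 and at 6.44, 6.45 and 6.42 at day 4 (-0.69 ± 0.11, limma adjusted p = 0.00586). Over both arms the 4 groups of Hoxc6 arrays did not overlap, with the arrays at day 8 with SKO lowest and those at day 4 without SKO highest. The Hoxc6 call was lost without either blank virus array with SKO. Of the 37 members, 7 had an unadjusted p under 0.05, as did 4565 of all 19938 genes, a larger share.

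The next largest day differences with SKO missed the threshold. Hoxb1, an anterior gene of the hindbrain, was at 5.47, 5.19 and 5.32 at day 8 and at 4.30, 4.90 and 5.11 at day 4 (0.55 ± 0.19, limma adjusted p = 0.113), with the cluster C array at day 4 lowest. Hoxd13, which shapes the digits, was at 6.09, 6.38 and 6.57 at day 8 and at 6.59, 7.13 and 6.70 at day 4 (-0.46 ± 0.15, limma adjusted p = 0.102). Hoxc5 was at 5.31, 5.14 and 5.43 at day 8 and at 5.79, 5.68 and 5.48 at day 4 (-0.36 ± 0.12, limma adjusted p = 0.11). Hoxa2, the selector gene of the second pharyngeal arch, was at 5.24, 5.32 and 5.44 at day 8 and at 4.41, 5.25 and 5.32 at day 4 (0.34 ± 0.15, limma adjusted p = 0.217), a difference that lies mostly in the cluster C pair. Hoxb13 was at 3.72, 3.66 and 3.72 at day 8 and at 4.07, 3.77 and 4.17 at day 4 (-0.30 ± 0.10, limma adjusted p = 0.117).

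**Figure D3:**
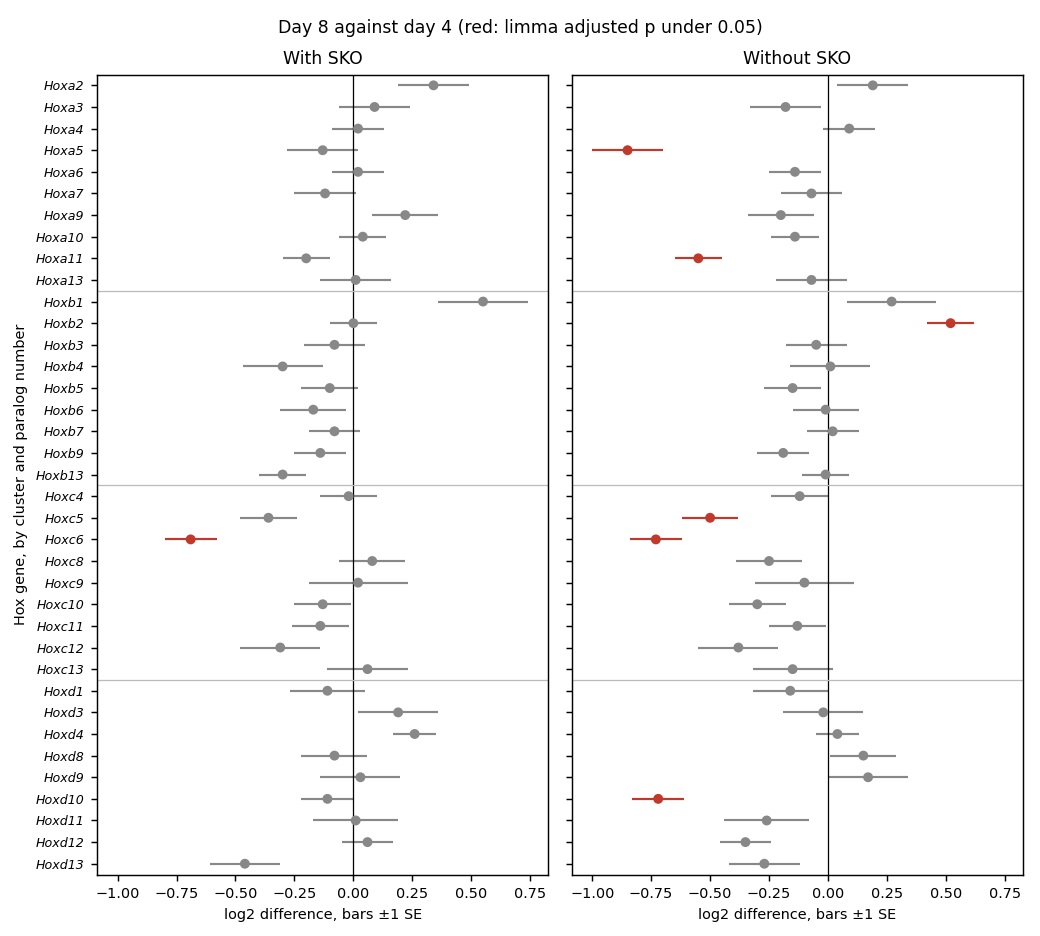
Points give the log2 difference of day 8 minus day 4 for each Hox gene and bars ±1 SE from limma, with SKO on the left and without SKO on the right. Red points passed an adjusted p of 0.05. With SKO the red point is Hoxc6, and without SKO 5 red points lie below 0 and Hoxb2 above it.

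Whether the change between days differed between the arms was tested directly. No Hox gene passed with limma, against 2.97% of all genes. An unadjusted p under 0.05 occurred in 5 of 37 members and in 3459 of all 19938 genes, a larger share. The difference of changes, with SKO minus without, was 0.61 ± 0.16 for Hoxd10 (limma adjusted p = 0.084), -0.52 ± 0.15 for Hoxb2 (limma adjusted p = 0.111) and 0.72 ± 0.21 for Hoxa5 (limma adjusted p = 0.121). It was 0.40 for Hoxd12 and 0.36 for Hoxa11. With a mean-variance trend and robust empirical Bayes, Hoxa5 and Hoxd10 passed (limma adjusted p = 0.0433 and 0.0447), and with dim genes left out Hoxd10 did (limma adjusted p = 0.0457). The same difference compares the SKO effects on the 2 days, so the Hox genes that passed on 1 day only were not shown to differ between the days.

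**Figure D4:**
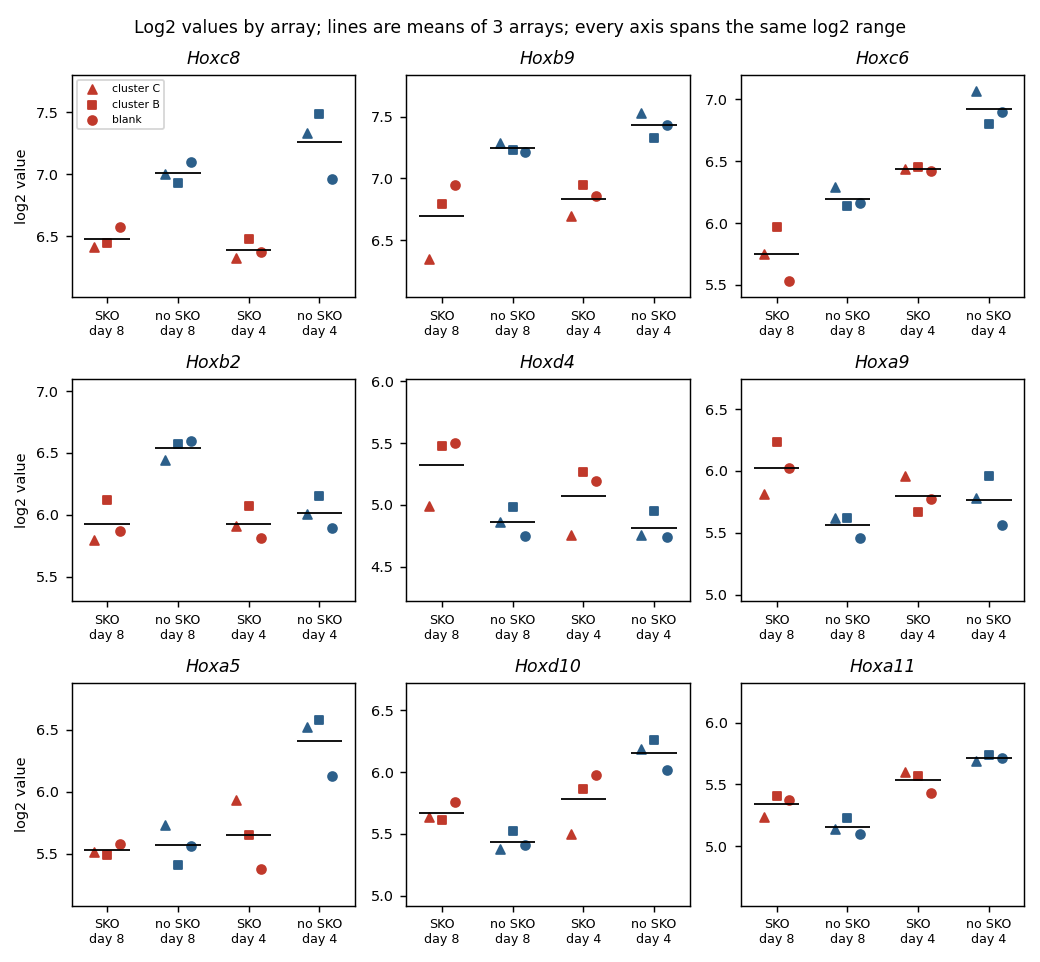
Log2 values on every array of 9 Hox genes that passed in a SKO or day comparison, by arm and day, with SKO in red and no SKO in blue. Triangles stand for cluster C, squares for cluster B, circles for blank virus, and lines for the mean of 3 arrays. Hoxb9 and Hoxc8 separate the arms on both days, and Hoxd4 is higher with SKO at day 8. Hoxa5, Hoxa11, Hoxb9, Hoxc6 and Hoxd10 are highest on the 3 arrays at day 4 without SKO, a pattern not counted over all genes.

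Upstream sequence is shown for 4 genes of 2 patterns in the levels. For Hoxa5 and Hoxd10 the 3 arrays at day 4 without SKO were the highest of the 12. That also held for Hoxa11, Hoxb9, Hoxc5, Hoxc6 and Hoxd12, and genes with this pattern were not counted over all genes. Hoxa9 and Hoxd4 rose with SKO at day 8. Each stretch holds the 250 bases before the annotated start, from 5′ to 3′ on the strand of the gene, from RefSeq (GRCm38.p6), and capitals mark a match to a motif searched. Promoters were in the table for 22 Hox genes, Hoxb8 included.
Hoxa5 (chr6:52204588-52204837, minus strand): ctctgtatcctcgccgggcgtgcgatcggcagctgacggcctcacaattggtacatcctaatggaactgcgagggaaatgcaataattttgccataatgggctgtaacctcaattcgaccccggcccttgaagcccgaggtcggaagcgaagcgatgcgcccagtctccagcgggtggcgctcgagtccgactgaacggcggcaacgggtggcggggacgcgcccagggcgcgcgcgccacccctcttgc
Hoxd10 (chr2:74691641-74691890, plus strand): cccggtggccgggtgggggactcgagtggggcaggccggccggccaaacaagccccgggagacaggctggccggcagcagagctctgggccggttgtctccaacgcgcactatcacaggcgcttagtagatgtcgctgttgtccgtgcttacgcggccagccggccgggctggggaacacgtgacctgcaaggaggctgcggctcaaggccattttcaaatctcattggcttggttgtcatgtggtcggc
Hoxa9 (chr6:52227371-52227620, minus strand): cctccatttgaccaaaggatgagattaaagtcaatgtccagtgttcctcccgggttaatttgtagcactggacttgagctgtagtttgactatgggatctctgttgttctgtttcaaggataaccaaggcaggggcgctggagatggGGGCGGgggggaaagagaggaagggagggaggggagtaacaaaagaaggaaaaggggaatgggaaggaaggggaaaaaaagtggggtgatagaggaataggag
Hoxd4 (chr2:74721728-74721977, plus strand): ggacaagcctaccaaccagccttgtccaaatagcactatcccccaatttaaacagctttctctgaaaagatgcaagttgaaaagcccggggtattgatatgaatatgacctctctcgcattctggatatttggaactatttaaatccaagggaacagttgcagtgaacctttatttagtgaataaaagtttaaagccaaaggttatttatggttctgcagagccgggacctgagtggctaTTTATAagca
Matches were searched on both strands, and a Hox gene with several stretches was counted once if any of them held a match, while the share is over single promoters. The octamer ATGCAAAT, bound by Oct4, was in 0 of the 22 Hox genes and in 1.60% of 32851 promoters, and the Sox letters CATTGTT were in 0 and in 3.29%. The Klf letters CCACACCC were in 1, that of Hoxa2, and in 3.20% of promoters. The Pbx-Hox letters TGATNNAT were in 4 (Hoxa2, Hoxb1, Hoxb8 and Hoxd11) and in 7.68%. TATAAA was in 4 (Hoxa10, Hoxb8, Hoxd13 and Hoxd4) and in 12.4%, and GGGCGG, the GC box, in 10 and in 32.7%. The match of Hoxd4 reads TATAAA on the strand opposite to the gene, and Hoxa5 and Hoxd10 held none of the 6. No match says only that these letters are not in the window.

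The virus comparisons asked whether either microRNA cluster moved Hox genes. No Hox gene passed in any of the 5 comparisons with limma. With SKO the share of all genes called was 0.0201% for cluster C against blank virus, 0.01% for cluster B against blank virus and 0.0201% for cluster C against cluster B, and without SKO it was 0.0% for both clusters against blank virus. Members with an unadjusted p under 0.05 numbered 3, 0 and 5 of 37 with SKO, and 1 for cluster C and 3 for cluster B without it. Of all 19938 genes, 1359, 614 and 1102 had such a p with SKO. Without SKO it was 941 for cluster C and 1169 for cluster B. Each value rests on 2 arrays against 2, 1 per day.

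With SKO and cluster C, the largest differences with 1 sign on both days were those of Hoxa2 (-0.56 ± 0.18, limma adjusted p = 0.687), Hoxd4 (-0.47 ± 0.11, limma adjusted p = 0.641) and Hoxb9 (-0.37 ± 0.14, limma adjusted p = 0.687) below blank virus. Hoxc4 (0.15) and Hoxc6 (0.12) were the only members above it on both days. The Hoxa2 difference lay mostly at day 4, at -0.92 against -0.20 at day 8. Against cluster B it was -0.84 at day 4 and -0.08 at day 8. Both rest on the day 4 array of SKO with cluster C, where Hoxa2 was at 4.41, against 5.24 to 5.44 on the other arrays with SKO. For Hoxd4 the cluster C arrays, at 4.99 at day 8 and 4.76 at day 4, lay below the blank virus arrays at 5.50 and 5.19 and near the range of 4.74 to 4.98 found without SKO. Between the clusters, among members of 1 sign on both days, Hoxd4 (-0.50), Hoxa2 (-0.46) and Hoxd13 (-0.42) were lowest with cluster C, and Hoxd1 (0.36), Hoxb13 (0.18) and Hoxa5 (0.15) highest. With SKO and cluster B, by the same limit, Hoxa3 (0.27), Hoxd8 (0.26) and Hoxb2 (0.25) lay above blank virus and Hoxc11 (-0.26), Hoxb13 (-0.23) and Hoxa13 (-0.23) below it.

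Among members of 1 sign on both days, cluster C without SKO gave the lowest differences for Hoxd8 (-0.61), Hoxc10 (-0.14) and Hoxb13 (-0.10) and the highest for Hoxa3 (0.40), Hoxa5 (0.28) and Hoxa9 (0.19). With cluster B, by the same limit, Hoxb3 (-0.61, limma adjusted p = 0.761), Hoxc4 (-0.55, limma adjusted p = 0.761) and Hoxc10 (-0.18) lay below blank virus, and Hoxd1 (0.47), Hoxa9 (0.28) and Hoxa13 (0.27) above. A missed threshold does not show that the viruses acted alike on these genes.

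Other genes of positional identity were read from lists, in the same SKO comparison. TALE homeodomain proteins bind DNA together with Hox proteins. Of 8 measured, 2 fell at day 8, Pknox2 (-0.65 ± 0.12, limma adjusted p = 0.00347) and Meis3 (-0.52 ± 0.11, limma adjusted p = 0.00643), and 0 rose, with a list median of 0.04. The share that fell was 25%, against 12.7% of all genes. The third lowest was Pbx4 (-0.04), and Meis2 (0.35), Pbx3 (0.30) and Pbx2 (0.20) were highest, none of them past the threshold. At day 4, Pknox2 (-0.80) and Meis1 (-0.64, limma adjusted p = 0.016) fell.

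Of 36 limb and other positional transcription factors, 13 fell and 3 rose at day 8, with a median of -0.30, and 10 fell and 2 rose at day 4, with a median of -0.21. The shares are 36.1% lower and 8.33% higher at day 8 and 27.8% and 5.56% at day 4, against 12.7% and 13.4% of all genes at day 8 and 9.40% and 9.52% at day 4. The lowest at day 8 were Dlx5 (-1.12 ± 0.17, limma adjusted p = 0.00139), a factor of limb and bone, Prrx2 (-0.99), a factor of limb mesenchyme, and Gli3 (-0.70), which mediates Hedgehog signals in the limb bud. Those that rose were Foxd1 (1.42 ± 0.10, limma adjusted p = 1.42e-05), Tbx2 (0.86) and Tbx15 (0.33).

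Retinoic acid is an inducer of Hox genes. Of 18 measured genes of its pathway, 3 rose and 3 fell at day 8, with a median of -0.13, and 4 rose and 3 fell at day 4, with a median of -0.01. At day 8 the share was 16.7% in each direction, near the 13.4% of all genes that rose and 12.7% that fell. At day 4 it was 22.2% higher and 16.7% lower, against 9.52% and 9.40%. Rdh10, which makes retinal (1.87 ± 0.12, limma adjusted p = 8e-06), Crabp2, a carrier of retinoic acid (1.26), and Cyp26a1, which degrades it (1.19), were highest. Rbp4, the retinol carrier, was lowest (-2.10 ± 0.11, limma adjusted p = 2.48e-06), followed by Aldh1a2, which makes retinoic acid (-0.54, limma adjusted p = 0.0501), which missed the threshold, and the receptor gene Rara (-0.48, limma adjusted p = 0.0234).

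Polycomb complexes repress Hox genes and Trithorax proteins keep them active. Of 33 genes of both kinds measured, 14 rose and 0 fell at day 8, with a median of 0.26, and 9 rose and 1 fell at day 4, with a median of 0.19. The shares that rose were 42.4% at day 8 and 27.3% at day 4, against 13.4% and 9.52% of all genes, and the shares that fell 0.0% and 3.03%, against 12.7% and 9.40%. Suz12 (1.30 ± 0.16, limma adjusted p = 0.000366) and Ezh1 (1.23) belong to Polycomb complex PRC2 and Pcgf5 (1.23) to PRC1. The lowest, Pcgf3 (-0.26), Cbx8 (-0.25) and Rbbp7 (-0.18), missed the threshold. The list mean was 6.90 to 6.99 with SKO at day 8 and 6.56 to 6.60 without.

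Genes and microRNAs inside or beside the Hox clusters numbered 19, of which 2 fell and 0 rose at day 8, with a median of -0.07. None passed at day 4, where the median was -0.07. On that day 0 of them had an unadjusted p under 0.05 with limma, against 6109 of all 19938 genes. The share that fell at day 8, 10.5%, was near the 12.7% of all genes. Evx2, a homeobox gene at the end of the Hoxd cluster (-0.49 ± 0.15, limma adjusted p = 0.0435), and Mir615, the gene of miR-615-3p (-0.40 ± 0.13, limma adjusted p = 0.0457), fell. Mir196a-1 (-0.21) missed the threshold, as did the flanking genes Cbx5 (0.24), Skap2 (0.22) and Calcoco1 (0.18). The miR-10 and miR-196 family genes did not pass on either day, with Mir10a at -0.08, Mir10b at -0.16, Mir196a-2 at -0.04 and Mir196b at 0.05 at day 8. Whether these probe sets read mature or precursor RNA is not known here. Of the 19 genes of this list, 3 lay below the lower quartile on all 12 arrays, and their differences are best read as bounds. The plot of list medians sets these groups beside the Hox genes.

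**Figure D5:**
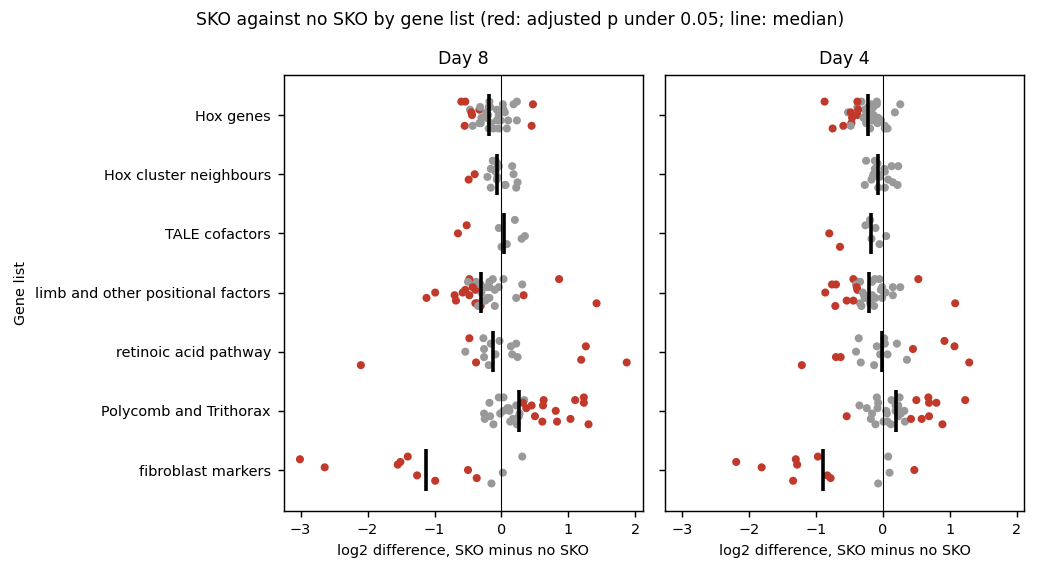
Each point is the log2 difference of SKO minus no SKO for 1 gene of a list, at day 8 on the left and day 4 on the right, red where it passed an adjusted p of 0.05, and black lines are list medians. The Hox median is -0.18 at day 8 and -0.22 at day 4, Polycomb and Trithorax genes lie to the right with medians of 0.26 and 0.19, and fibroblast markers lie furthest to the left with medians of -1.12 and -0.90.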

How the data were processed

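RNA was hybridised to 12 Affymetrix whole-transcript arrays from 100 ng of total RNA, per the labels' protocols. The deposited values are on a log2 scale, read from their range of 0.916 to 14.034, and the submitters' processing notes name RMA and Partek, with no versions. RMA summarises probes and normalizes the arrays together, which hides any shift common to most genes, and values carry no counts. The genome build is not given in the sources used.

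The table held 28853 probe sets, named through the platform annotation (21789 with 1 gene, 1621 with several, 5443 with none). For each of 19938 genes the probe set with the highest mean was kept. One limma 3.58.1 fit in R 4.3.3 over all arrays had 8 coefficients (SKO, day, virus, SKO by day, SKO by virus) and left 4 residual degrees of freedom, with 4.94 prior ones and a median residual SD of 0.152. The spread is that of virus effects between days, and nothing says that arrays came from separate cultures, so p-values measure that spread alone. P-values were adjusted by Benjamini-Hochberg over all genes in each of 10 comparisons.

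The fit was also run on simulated data for 19938 genes with 200 changed. For SKO at day 8 it found 24% of the genes set 0.58 log2 units apart, 88% of those at 1 and 100% of those at 2. Of its calls 6.59% were false. In the data 2674 genes rose and 2525 fell in that comparison, and with more genes changed the adjustment is less strict. These shares therefore do not give the recovery in the data.

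The Hox members and the gene lists (TALE cofactors, positional factors, retinoic acid pathway, Polycomb and Trithorax, Hox cluster neighbours, fibroblast and other cell type markers) were chosen with earlier results of these data known. Array values are given for members that passed in a SKO or day comparison, at most 12 by size, filled up to 6 with members of 1 sign in all 3 virus pairs. In virus comparisons the 3 largest rises and 3 largest falls of 1 sign on both days are named, and of other lists the 3 highest and 3 lowest at day 8. Meis1 and the further microRNA genes were named after their values were seen.

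Alternatives tried were a separate fit for each arm, an additive virus effect, empirical Bayes with a trend and robust settings, equal array medians, quantile normalization, dim genes left out (mean below the 25th percentile), the mean over probe sets, and leaving out each array. Python 3.11.15 with pandas 2.3.3, numpy 2.4.6 and matplotlib 3.10.9 made tables and figures.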

Additional observations from a re-analysis of the deposited data

Results flagged for a closer look

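Within the 6 arrays of each arm, 5 values of Hox genes stood far from the other 5 arrays, by Dixon's ratio of the gap to the range (above 0.625 for 6 arrays). In total 74 such groups were looked at, and chance flags about 1 in 20. On the day 4 array of SKO with cluster C, Hoxa2 was low at 4.41, against 5.24 to 5.44 on the other arrays with SKO, and Hoxb3 was high at 6.28, against 5.87 to 6.01. On the day 4 array of cluster B without SKO, Hoxc13 was high at 4.65, against 3.80 to 4.07 on the other arrays without SKO, and Hoxd1 was high at 4.57, against 3.71 to 4.01. On the day 4 array of cluster C without SKO, Hoxc11 was high at 3.97, against 3.53 to 3.69. None of these 5 genes passed in a comparison of the report.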

How the results depend on the processing

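No Hox call changed direction in any alternative. Of the 24 calls of the report, 18 were kept in every alternative other than leaving out an array, and 4 were kept without any 1 array too: Hoxc8 for SKO at day 4, Hoxb2 and Hoxd4 for SKO at day 8, and Hoxc6 for the days without SKO. Hoxd10 at day 4 and Hoxa4 at day 8 were lost with an additive virus effect, Hoxd12 at day 4 with the trend and robust fit, Hoxa9 at day 8 with quantile normalization or equal medians, and Hoxb2 and Hoxc5 for the days without SKO when that arm was fitted alone, which uses fewer arrays. At day 8, Hoxa6, Hoxb4, Hoxb7 and Hoxc5 also fell in some alternatives, up to 12 calls with dim genes left out. That setting tested 34 members, and for SKO at day 4 it called 4268 of all genes kept, against 3773 in the main fit. The trend and robust fit gave 3 calls for the days with SKO, adding Hoxb1 and Hoxd13, and 2 for the difference between the arms, where leaving out dim genes gave 1. Leaving out 1 array gave 3 to 10 calls for SKO at day 4 (9 with all arrays), 3 to 8 for SKO at day 8 (8), 0 to 1 for the days with SKO (1), 1 to 6 for the days without SKO (6), and 0 in all other comparisons. At day 4 the count for SKO was 3 without the array of SKO and blank virus and 4 without any other day 4 array. Of all 19938 genes, 2178 to 2775 were called in either direction in these day 4 fits, against 3773 with all arrays. At day 8 it was 3 without cluster C and no SKO, 4 without SKO and blank virus, SKO and cluster C or blank virus alone, and 5 without cluster B and no SKO. For the days without SKO it was 3 without either blank virus array, 2 without either cluster B array and 1 without either cluster C array. The count for the days with SKO was 0 without either SKO and blank virus array. These fits have fewer samples. Calls over all genes are given here for SKO at day 4 only, so the other counts have no share of all genes beside them. The labels carry no replicate numbers, so there was no block by number to fit, and arrays are matched by virus, which is a term of the fit. The number of arrays limits precision, and Hoxc11, Hoxc12 and Hoxd1 lay partly below the lower quartile of signal.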

Other observations

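The probe set shared by Hoxb8 and Hoxb7, which names no single gene, was at 4.58, 4.43 and 4.75 with SKO and clusters C, B and blank virus at day 8, and at 5.20, 4.96 and 5.08 without SKO. At day 4 it was at 4.97, 4.92 and 4.78 with SKO and at 5.09, 5.31 and 5.18 without. All 6 arrays with SKO lay at or below 4.97, and the lowest of the 6 without SKO was at 4.96. It was not tested in the report.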
